A study of Mus musculus with 9 samples.

Results

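Connexins are the subunits of gap junctions, and 8 connexin genes were examined here across the otic and non-otic tissues of the mouse embryo: *Gja1*, *Gja3*, *Gja4*, *Gja5*, *Gjb1*, *Gjb2*, *Gjb5* and *Gjb6*. They were taken by symbol, with every probe the array listed under them and with no use of measured values. The 8 genes had 12 probes, of 18 connexin symbols with 25 probes and of 18120 symbols with 25697 probes in all. *Gja5* and *Gjb2* had 3 probes each and the other 6 genes had 1.

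RNA came from CD-1 mouse embryos at E10.5 in all groups, and the labels give no transgene, mutation or treatment. The OV group held pools of microdissected otic vesicles, the periotic group held the tissue around them including mesenchyme and hindbrain, and the embryo-minus-otic group held whole embryos without the greater otic region. Each group had 3 pooled samples, each on 1 MouseRef-8 v2.0 array, and the design asks which genes mark the otic lineage against the rest of the embryo. As a check of the labels, 11 of 13 probes of otic vesicle genes such as *Oc90*, *Fbxo2* and *Lmx1a* were higher in the OV than in each non-otic group, and their summed normalized intensity was 7366 to 8068 on the OV arrays, 1130 to 1259 on the periotic arrays and 1296 to 1363 on the embryo-minus-otic arrays. Between 43.9% and 47.3% of all probes were above background on an array, meaning at a detection *p*-value under 0.01 against that array's negative controls. Precision is limited by having 3 arrays in a group, and the methods name 3 litters but nothing in the labels ties a sample to one of them, so the tests measure the spread between these pools.

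Connexin proteins assemble into hexameric hemichannels, and hemichannels of neighbouring cells dock into channels that pass ions and small molecules between the cells. The family is divided by sequence into groups that include the alpha (*Gja*) and beta (*Gjb*) connexins. In the mature inner ear, *Gjb2* and *Gjb6* encode the main connexins of the cochlear supporting cells and the lateral wall, and mutations of either gene cause hereditary deafness. *Gja1* encodes the most widely expressed connexin, *Gja4* and *Gja5* encode connexins of the vascular endothelium, and *Gja5* is also a connexin of atrial muscle and the cardiac conduction system. *Gja3* is a lens fibre connexin, *Gjb1* is abundant in liver and myelinating Schwann cells, and *Gjb5* is expressed in stratified epithelia.

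Of the 12 probes, 3 were above background on all 9 arrays, 4 on some of them and 5 on none. The probes on all arrays were those of *Gja1*, one of *Gja5* and one of *Gjb2*. *Gja3*, *Gjb1* and *Gjb5* had no probe above background on any array. On all 3 arrays of a group, 4 probes of 3 genes were above background in the OV. The corresponding numbers were 6 probes of 5 genes for periotic tissue and 5 probes of 4 genes for embryo-minus-otic tissue. The genes were *Gja1*, *Gja5* and *Gjb2* in the OV, with *Gja4* added in embryo-minus-otic tissue and both *Gja4* and *Gjb6* added in periotic tissue. Of all probes on the array, 42.1% were above background on all 3 OV arrays. The share was 42.5% for periotic and 41.1% for embryo-minus-otic tissue.

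**Figure D1:**
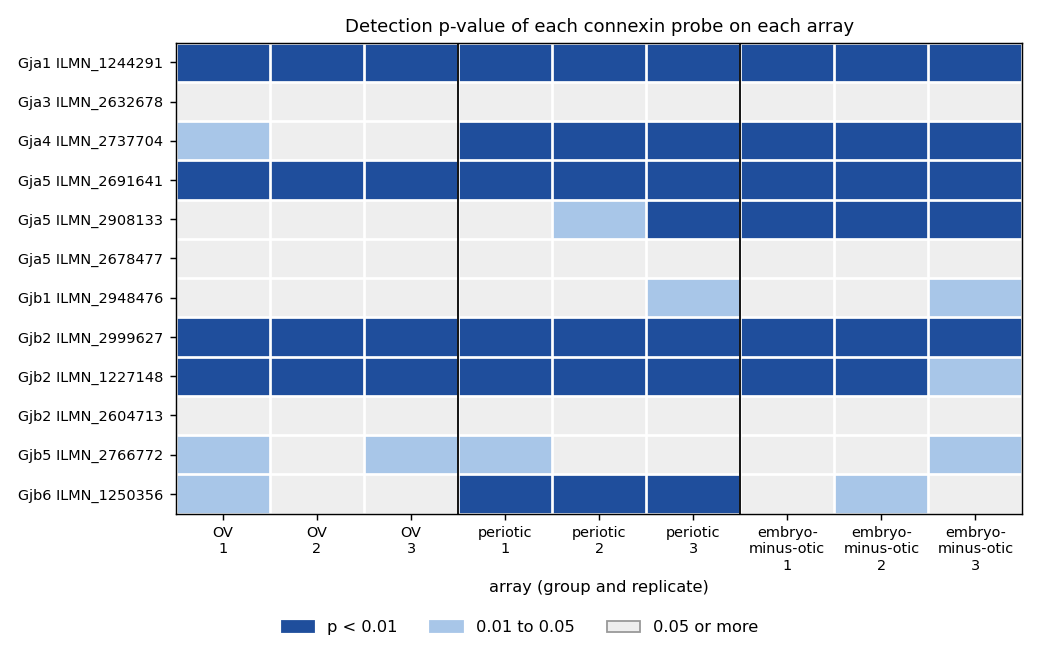
Detection *p*-value of each of the 12 connexin probes (rows) on each of the 9 arrays (columns, by group and replicate). Dark blue cells are under 0.01, light blue cells 0.01 to 0.05 and grey cells 0.05 or more. The *Gja4* probe was above background on all 6 non-otic arrays and on no OV array, and the *Gjb6* probe on the 3 periotic arrays alone.

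A probe was called when its *q*-value, the *p*-value of the limma fit adjusted by Benjamini-Hochberg over all 25697 probes, was under 0.05. Between the OV and periotic tissue, 3 connexin probes were higher in the OV (*Gja1* and 2 of *Gjb2*) and 3 were lower (*Gja4*, *Gja5* and *Gjb6*), where 5.07% of all probes were called higher and 5.15% lower. Between the OV and embryo-minus-otic tissue, 2 probes of *Gjb2* were higher and 3 probes were lower (*Gja4* and 2 of *Gja5*), against 5.89% and 5.51% of all probes. Between periotic and embryo-minus-otic tissue none was higher and 2 were lower in periotic tissue (*Gja4* and *Gja5*), against 2.86% and 2.95%. The median log2 difference of the 12 probes was 0.05, -0.01 and -0.08 in these comparisons, and that of all probes was within 0.01 of 0 in each. The first and second comparisons share the OV arrays, so their calls are not independent of each other.

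**Figure D2:**
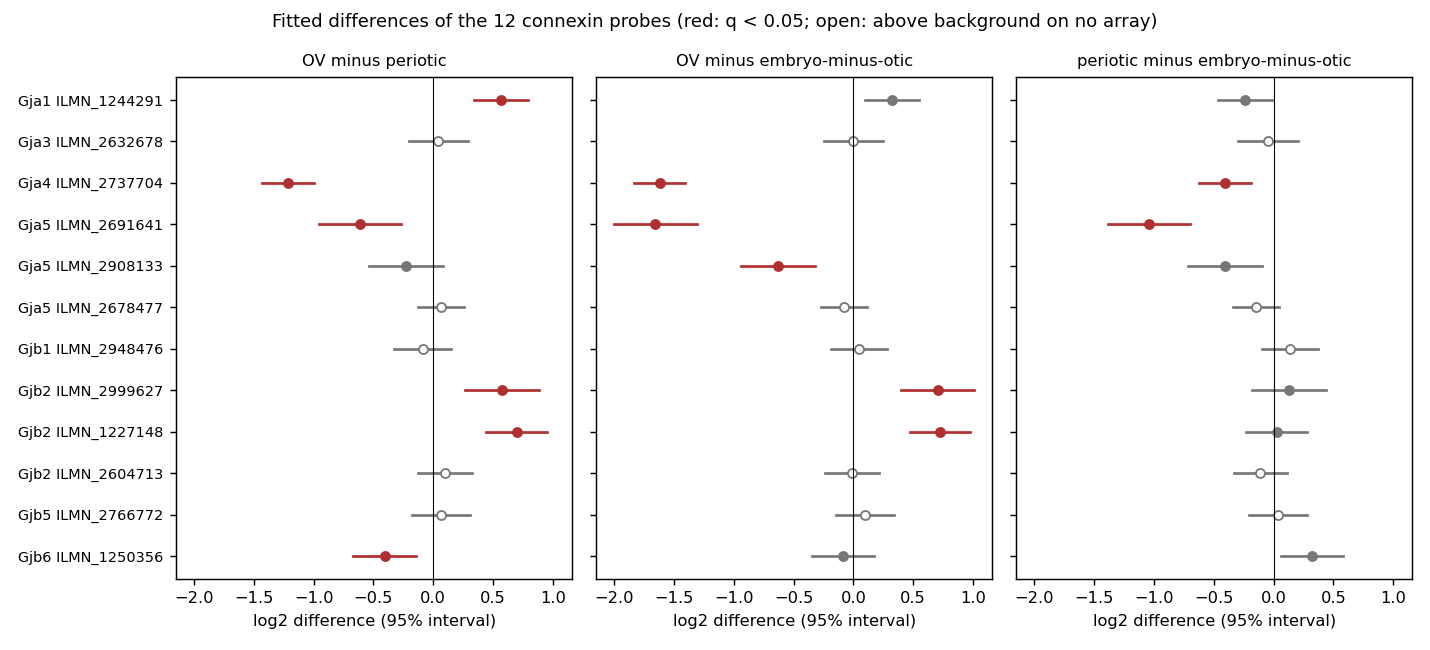
Fitted log2 difference in normalized intensity for the 12 connexin probes in the 3 comparisons, with the 95% interval of limma as a bar. Red marks *q* under 0.05 and open circles mark probes above background on no array. *Gja4* and the first *Gja5* probe lie left of 0 in all 3 panels, and 2 of the 3 *Gjb2* probes lie right of 0 in both comparisons with the OV.

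The calls for the OV came mainly from *Gja1* and *Gjb2*, on the higher side, and *Gja4* and *Gja5*, on the lower side. The sequences upstream of these 4 genes are shown so that genes with opposite differences can be compared. Each is the 250 bases before the start of the gene in RefSeq on GRCm38.p6, written 5′ to 3′ on the strand of the gene, and capitals mark the letters TTAAAA on either strand (TTTTAA where it is read on the other strand).
Gja1, chr10:56377050-56377299, plus strand: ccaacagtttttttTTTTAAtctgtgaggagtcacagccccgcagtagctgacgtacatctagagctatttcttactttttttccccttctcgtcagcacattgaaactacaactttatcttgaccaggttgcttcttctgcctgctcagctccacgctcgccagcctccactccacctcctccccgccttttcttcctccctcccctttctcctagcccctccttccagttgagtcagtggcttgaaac
Gjb2, chr14:57104703-57104952, minus strand: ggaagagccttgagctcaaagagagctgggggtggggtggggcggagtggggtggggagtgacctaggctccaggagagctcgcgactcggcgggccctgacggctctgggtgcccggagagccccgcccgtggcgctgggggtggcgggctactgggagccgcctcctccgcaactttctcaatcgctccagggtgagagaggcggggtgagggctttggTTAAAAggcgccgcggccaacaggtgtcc
Gja4, chr4:127314040-127314289, minus strand: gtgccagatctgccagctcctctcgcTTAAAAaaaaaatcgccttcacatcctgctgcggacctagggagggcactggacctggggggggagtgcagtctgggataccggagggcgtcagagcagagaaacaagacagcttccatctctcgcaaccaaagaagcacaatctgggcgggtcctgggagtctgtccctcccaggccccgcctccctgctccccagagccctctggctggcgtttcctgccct
Gja5, chr3:97032152-97032401, plus strand: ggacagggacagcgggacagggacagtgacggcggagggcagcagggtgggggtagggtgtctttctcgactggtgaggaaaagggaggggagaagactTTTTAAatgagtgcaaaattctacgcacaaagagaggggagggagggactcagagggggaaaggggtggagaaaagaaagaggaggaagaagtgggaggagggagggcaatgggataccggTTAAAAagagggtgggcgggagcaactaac
TTAAAA was chosen as a motif after these sequences had been read. It stood from 29 to 24 bases before the start of *Gjb2* and from 30 to 25 bases before the start of *Gja5*, where the former is a gene higher and the latter a gene lower in the OV. It stood from 236 to 231 bases before the start of *Gja1* and from 224 to 219 bases before that of *Gja4*. All 8 genes matched an entry of the RefSeq table, with 12 upstream windows among them. TTAAAA occurred in the last 50 bases of 3 of these windows, of *Gjb1*, *Gjb2* and *Gja5*, and in the last 50 bases of 3.28% of 32851 mouse windows. Over the whole 250 bases it occurred in 6 of 12 windows and in 17.7% of all windows. The windows shown above make up 2 of the 3 and 4 of the 6, so these counts are no test of the motif. TATAAA occurred in 3 of 12 windows against 12.4%, GGGCGG in 4 of 12 against 32.7%, and CCAAT in 3 of 12 against 33.8%, each counted on both strands.

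Among the alpha connexins, *Gja1* was well above background in every tissue and highest in the OV. Its probe (ILMN_1244291, chromosome 10 in the deposited annotation) read a normalized intensity of 6587, 5946 and 6442 on the OV arrays. The periotic arrays read 4281, 3666 and 4984, and the embryo-minus-otic arrays read 4935, 4962 and 5241. All 3 OV arrays lay above the 6 non-otic arrays, while periotic and embryo-minus-otic arrays overlapped. On the log2 scale the means were 12.63 ± 0.08, 12.06 ± 0.22 and 12.30 ± 0.05 (SD, n = 3 each). The OV was 1.48-fold above periotic tissue (log2 difference 0.56, SE 0.11, *q* = 0.0017 in limma), a call that was lost with median normalization and without normalization. The OV was 1.25-fold above embryo-minus-otic tissue (log2 0.33, 95% interval 0.10 to 0.55), which did not pass the test (*q* = 0.062 in limma) but passed it in 5 of 17 alternatives, among them the fits without periotic replicate 2 or periotic replicate 3. The difference of periotic from embryo-minus-otic tissue was -0.24 (95% interval -0.46 to -0.01, *q* = 0.28 in limma).

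*Gja4*, which encodes an endothelial connexin, fell in the OV against both non-otic groups. Its probe (ILMN_2737704, chromosome 4) read 66.5, 59.5 and 62.1 on the OV arrays, none of them above background. It read 137, 165 and 136 on the periotic arrays and 175, 201 and 203 on the embryo-minus-otic arrays, all above background. The 3 groups did not overlap, with the OV lowest and embryo-minus-otic tissue highest. The log2 means were 5.97 ± 0.08, 7.19 ± 0.16 and 7.59 ± 0.12 (SD, n = 3 each). Since the OV probe was not well above background, the differences are lower bounds, which set the brighter group against the higher of the OV value and the dimmest probe above background on each array. The intensity was at least 1.98-fold higher in periotic tissue than in the OV (*q* = 4.2e-07 in limma) and at least 2.62-fold higher in embryo-minus-otic tissue (*q* = 1.8e-08 in limma). Both calls held under all 17 alternatives, which were 8 other settings and the 9 fits that left out 1 array. The fitted log2 differences were -1.22 and -1.62, and with neqc background correction they were -2.11 and -2.64. Periotic tissue was 1.32-fold below embryo-minus-otic tissue (log2 -0.40, SE 0.10, *q* = 0.026 in limma), and this call was lost in 8 of the 17: neqc background correction, median normalization, no normalization, a fit of only the 2 groups, and the fits without periotic replicate 1, periotic replicate 3, embryo-minus-otic replicate 2 or embryo-minus-otic replicate 3.

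*Gja5*, a connexin of arterial endothelium and of the heart, fell stepwise from embryo-minus-otic to periotic tissue to the OV. Its first probe (ILMN_2691641, chromosome 3) was above background on all 9 arrays. The normalized intensity was 93.6, 74.3 and 79.8 in the OV, 99.96, 129.8 and 152.9 on the periotic arrays, and 302, 201.5 and 284.7 on the embryo-minus-otic arrays. The groups did not overlap, though OV replicate 1 and periotic replicate 1 lay close together. The log2 means were 6.36 ± 0.17, 6.97 ± 0.31 and 8.02 ± 0.32 (SD, n = 3 each). The OV was 3.15-fold below embryo-minus-otic tissue (log2 -1.66, SE 0.16, *q* = 2.8e-06 in limma), and periotic tissue was 2.06-fold below it (log2 -1.04, SE 0.16, *q* = 0.00065 in limma). These calls held under all 17 alternatives. The OV was 1.53-fold below periotic tissue (log2 -0.61, SE 0.16, *q* = 0.022 in limma), and this call was lost without OV replicate 2, OV replicate 3, periotic replicate 2 or periotic replicate 3, with *q* up to 0.12. With neqc this difference was -1.01, and that of the OV from embryo-minus-otic tissue was -2.38.

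The other probes of *Gja5* were above background on fewer arrays. ILMN_2908133 was above background on no OV array, 1 periotic array and all 3 embryo-minus-otic arrays, where it read 128, 80.0 and 81.4. Embryo-minus-otic replicate 1 stood above the others of its group, and on that array the first probe was highest too. The probe was at least 1.28-fold higher in embryo-minus-otic tissue than in the OV (log2 means 6.56 ± 0.38 and 5.93 ± 0.04, SD, n = 3 each, *q* = 0.0085 in limma). The log2 differences of the OV from periotic tissue (-0.23, *q* = 0.48 in limma) and of periotic from embryo-minus-otic tissue (-0.40, *q* = 0.15 in limma) did not pass the test. With neqc background correction the difference of the OV from embryo-minus-otic tissue was -1.19 in place of -0.63. ILMN_2678477 was above background on no array and was not called. Probes of a gene differ in brightness by design, so their levels were not set against each other.

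Markers of vessels and heart moved in some of the comparisons in which *Gja4* and *Gja5* were called. Of 14 probes of 11 endothelial genes, 6 were lower in the OV than in periotic tissue and 8 were lower than in embryo-minus-otic tissue, with none higher. Between periotic and embryo-minus-otic tissue, where *Gja4* and *Gja5* were lower in periotic tissue, 1 of the 14 was lower and the median log2 difference was -0.10. In the comparisons with the OV the median was -0.34 and -0.53, and the most negative values were -0.84 (*Esam1*, an endothelial adhesion molecule) and -1.16 (*Ramp2*, a receptor partner of endothelial cells). The summed normalized intensity of the list was 2812 to 3662 on OV arrays, 4655 to 4964 on periotic arrays and 4985 to 5787 on embryo-minus-otic arrays. *Pecam1*, *Cldn5* and *Emcn* each had a probe above background on all 9 arrays. A second *Pecam1* probe was above background on no OV array and was not called. *Cdh5* and *Kdr* were not called against periotic tissue (log2 -0.18 and 0.02) or against embryo-minus-otic tissue (log2 -0.14 and -0.12). Of 13 probes of 11 heart muscle genes, 11 were lower in the OV and 11 were lower in periotic tissue than in embryo-minus-otic tissue, and none differed between the OV and periotic tissue.

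The heart muscle list summed to 10222 to 11637 on embryo-minus-otic arrays and to 728 to 739 on periotic arrays, where 12 of its 13 probes were above background on no array. In the OV it summed to 1233 on replicate 1, 739 on replicate 2 and 705 on replicate 3. On these arrays the endothelial list summed to 3662, 3181 and 2812, and the first *Gja5* probe read 93.6, 74.3 and 79.8. Replicate 1 was highest for each. In these tissue pools, fewer cells of a type and less RNA per cell cannot be told apart. The part of endothelial or heart cells in the *Gja4* and *Gja5* differences was not tested. *Gja3*, the lens connexin (ILMN_2632678, with no chromosome in the annotation), stayed below background on all arrays with log2 means of 5.82, 5.78 and 5.83, and of 12 probes of lens genes none was above background on an OV array. *Cryab*, which is expressed in heart muscle too, was the 1 lens list probe above background on all 3 embryo-minus-otic arrays.

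**Figure D3:**
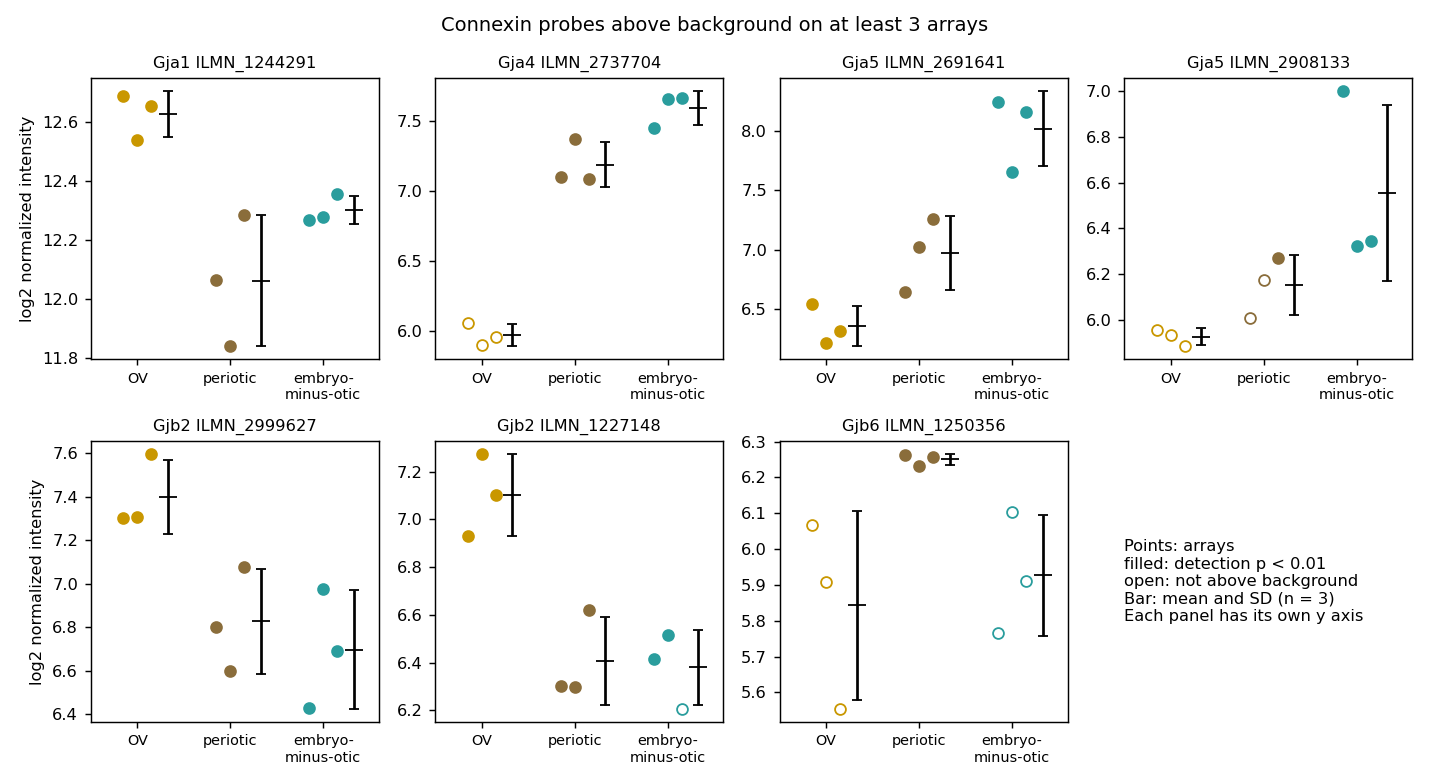
Normalized log2 intensity on each of the 9 arrays for the 7 connexin probes above background on at least 3 arrays, with a y axis of its own in each panel. Filled points are above background and open points are not, and the bar is the group mean with its SD (n = 3). The *Gja4* groups are separate in all 3 tissues, while the *Gjb2* panels show all OV arrays above all non-otic arrays.

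Among the beta connexins, *Gjb2* was the gene that rose in the OV. Its first probe (ILMN_2999627, chromosome 14) was above background on all 9 arrays, at 158, 158 and 194 in the OV, 111.5, 96.9 and 135 on the periotic arrays, and 86.0, 125.7 and 103 on the embryo-minus-otic arrays. The second probe (ILMN_1227148) was above background on 8 of 9 arrays, at 122, 155 and 137 in the OV, 78.9, 78.6 and 98.4 on the periotic arrays, and 85.4, 91.5 and 73.8 on the embryo-minus-otic arrays. With both probes every OV array lay above every non-otic array, and the non-otic groups overlapped. The embryo-minus-otic array not above background with the second probe was replicate 3, with a detection *p*-value of 0.010.

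The log2 means of ILMN_2999627 were 7.40 ± 0.17, 6.83 ± 0.24 and 6.70 ± 0.27, and those of ILMN_1227148 were 7.10 ± 0.17, 6.41 ± 0.19 and 6.38 ± 0.16 (SD, n = 3 each). The OV exceeded embryo-minus-otic tissue 1.63-fold with ILMN_2999627 (*q* = 0.0035 in limma) and 1.65-fold with ILMN_1227148 (*q* = 0.00053 in limma). Both calls held under all 17 alternatives. The OV exceeded periotic tissue 1.62-fold with ILMN_1227148 (log2 0.70, SE 0.12, *q* = 0.00074 in limma), which also held under all 17. With neqc the differences of ILMN_1227148 were 1.12 against periotic and 1.17 against embryo-minus-otic tissue. With ILMN_2999627 it was 1.49-fold (log2 0.58, SE 0.14, *q* = 0.015 in limma), a call lost in 6 of 17, among them the fits without OV replicate 3, periotic replicate 1 or periotic replicate 2. Between the non-otic groups the differences were 0.13 (95% interval -0.18 to 0.44) and 0.03 (95% interval -0.23 to 0.28), and neither passed the test (*q* = 0.77 and 0.96 in limma). The third *Gjb2* probe, ILMN_2604713, was above background on no array, with log2 means of 5.76, 5.66 and 5.77, so the rise in the OV rests on 2 of 3 probes.

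*Gjb6*, the partner of *Gjb2* in the mature cochlea, had its highest values in periotic tissue. Its probe (ILMN_1250356, chromosome 14, annotated to transcript variant 1) read 67.0, 60.0 and 47.0 in the OV, 76.7, 75.2 and 76.5 on the periotic arrays, and 54.4, 68.8 and 60.1 on the embryo-minus-otic arrays. Only the 3 periotic arrays were above background, and they lay above all 6 others. The log2 means were 5.84 ± 0.26, 6.25 ± 0.02 and 5.93 ± 0.17 (SD, n = 3 each), close to the dimmest probes above background, which lay at 6.14 to 6.24 depending on the array. The intensity was at least 1.04-fold higher in periotic tissue than in the OV. The fitted log2 difference of the OV from periotic tissue was -0.41 (*q* = 0.045 in limma). This call was lost in 8 of 17 alternatives. They were median normalization and no normalization, and the fits without OV replicate 2 or 3, any 1 periotic replicate or embryo-minus-otic replicate 3. From the group means, the bound for periotic over embryo-minus-otic tissue was 1.02-fold, a difference that was not called. The fitted log2 difference between these groups was 0.32, which did not pass the test (*q* = 0.17 in limma). That of the OV from embryo-minus-otic tissue was -0.08 (95% interval -0.34 to 0.18).

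*Gjb1* (ILMN_2948476, chromosome X) and *Gjb5* (ILMN_2766772, chromosome 4) were above background on no array. The *Gjb1* probe had log2 means of 5.90, 5.99 and 5.85 and the *Gjb5* probe 6.04, 5.97 and 5.94 in the order OV, periotic, embryo-minus-otic. For the 5 connexin probes below background on every array, the lowest *q* over the 3 comparisons was 0.50 in limma. A transcript below the detection limit of these probes is not shown to be absent. The closest approach to detection was that of *Gjb5* on OV replicate 3, at 75.6 with a detection *p*-value of 0.010.

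In both comparisons with the OV, epithelial markers moved in the same direction as *Gjb2* and *Gja1*. The *Gja1* difference from embryo-minus-otic tissue did not pass the test (*q* = 0.062 in limma). Of 9 probes of 7 pan-epithelial genes, 8 were higher in the OV than in each non-otic group, and the summed intensity of the list was 9535 to 10167 on OV arrays, 855 to 1042 on periotic arrays and 1384 to 1914 on embryo-minus-otic arrays. The list's median log2 difference was 1.02 against periotic tissue and 0.97 against embryo-minus-otic tissue. The differences of *Gja1* and the 2 detected *Gjb2* probes, 0.33 to 0.72, were smaller than these medians. With neqc, those of ILMN_1227148 were 1.12 and 1.17. List medians with neqc are not given here, so the order under that setting is not known. Between periotic and embryo-minus-otic tissue, 3 of the 9 list probes were lower in periotic tissue, and the list median was -0.11. No *Gjb2* or *Gja1* probe was called there. The part of the epithelial share of each pool in the connexin differences was not tested.

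**Figure D4:**
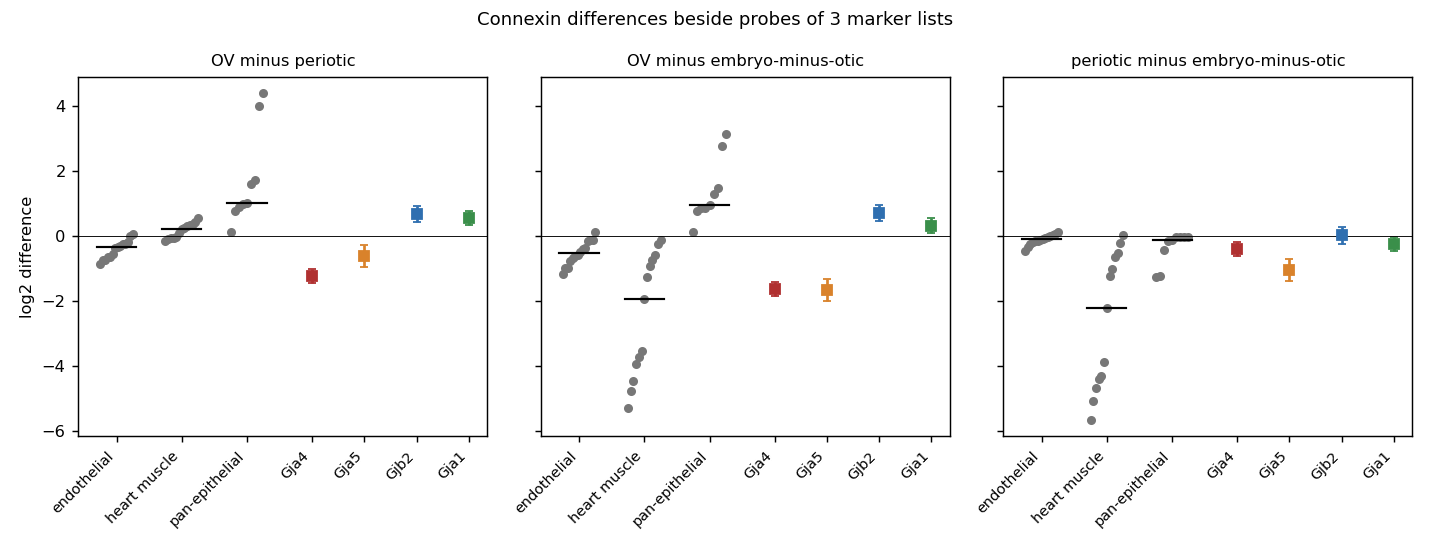
Log2 differences in the 3 comparisons for each probe of the endothelial, heart muscle and pan-epithelial lists (grey points, with the list median as a black line) and for 1 probe each of *Gja4*, *Gja5*, *Gjb2* (ILMN_1227148) and *Gja1* (squares, with the 95% interval). *Gja4* and *Gja5* lie below 0 beside the endothelial list in both comparisons with the OV, and the heart muscle median lies below 0 in both comparisons with embryo-minus-otic tissue and at 0.22 between the OV and periotic tissue.

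Of the connexins outside the 8 genes, *Gja7*, the array's symbol for the gene RefSeq names *Gjc1*, had log2 means of 8.37 ± 0.06 in the OV, 8.68 ± 0.19 in periotic tissue and 8.82 ± 0.20 in embryo-minus-otic tissue (SD, n = 3 each). This connexin of the early heart and vessels fell in the OV against embryo-minus-otic tissue (log2 -0.45, *q* = 0.016 in limma), and its difference from periotic tissue was -0.31 (*q* = 0.12 in limma). Of the pannexins, which form channels of a separate family, *Panx1* was above background on all 9 arrays at log2 means of 8.22, 8.32 and 8.28 and was not called, and *Panx2* and *Panx3* were above background on no array.

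Genes whose products bind or regulate connexins were followed over 27 probes of 14 genes. Against periotic tissue 7 probes were higher and 1 was lower in the OV, and against embryo-minus-otic tissue 5 were higher and 2 lower, with a median log2 difference of 0.04 and 0.13. *Cdh1*, the epithelial cadherin, was higher in the OV by 1.73 and 1.32 on the log2 scale. *Tjp1*, the scaffold best known to bind the tail of the *Gja1* product, had differences of 0.21 and 0.20 that did not pass the test (*q* = 0.62 and 0.60 in limma). *Cav1*, the caveolar coat protein abundant in endothelium, was lower in the OV by -0.78 and -0.93. Probes of the kinase gene *Csnk1d* did not move together, with 1 of 5 higher in the OV in both comparisons and another lower against embryo-minus-otic tissue.

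The patterns over the 9 arrays were also compared between probes by Pearson's r of the normalized log2 intensity, given as a description, since the arrays share 3 tissue groups and 1 normalization. Between the members, *Gja4* and the first *Gja5* probe had r = 0.85, the 2 detected *Gjb2* probes had r = 0.87, and *Gja4* and ILMN_1227148 of *Gjb2* had r = -0.92. Among 12478 probes above background on at least 3 arrays, the most similar to *Gja4* were *Mmrn2*, an endothelial matrix protein (r = 0.99), *Sst* (0.98) and *Ccnd3* (0.98). The most similar to the first *Gja5* probe were *Edn1*, which encodes the peptide endothelin (r = 0.98), 1110032E23Rik (0.98) and *Ttr* (0.97), and for the second *Gja5* probe *Myocd*, a coactivator of cardiac and smooth muscle genes, came first (r = 0.96). *Gja1* was most like *Mtbp* (r = 0.99), ILMN_2999627 of *Gjb2* most like *Htra3* (r = 0.96), ILMN_1227148 of *Gjb2* most like *B4galt4* (r = 0.97) and *Gjb6* most like *Obrgrp* (r = 0.98).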

How the data were processed

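RNA of pooled E10.5 CD-1 tissue was amplified with a T7 oligo(dT) primer, labelled with biotin and hybridized to Illumina MouseRef-8 v2.0 arrays. For every array and probe the authors deposited an average signal, an intensity from the Illumina software that was not normalized between arrays, and a detection p-value. The steps of the detection p-value imply 798 negative controls. The sources used here do not say whether a background was subtracted. The lowest deposited intensity was 32.8 to 49.2 depending on the array, as in signal without background subtraction. Signal that is not subtracted makes log2 differences of dim probes smaller.

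Each array was placed in its group by its label. Intensities were log2 transformed with a floor of 1, which changed 0 values, then quantile normalized across all 9 arrays. A single limma model (version 3.58.1, R 4.3.3) of the 3 groups was fitted to every one of the 25697 probes, and *p*-values were adjusted over all probes (Benjamini-Hochberg). A called probe has *q* under 0.05. Where no array of one group and every array of the other was above background, the fold is given as a bound. The bound is taken from the group means and makes no allowance for the spread between arrays. The *q*-value beside a bound belongs to the fitted log2 difference. Other differences with a group not above background are fitted log2 values. Probes were not averaged by gene, and all probes of the 8 genes are reported, with other connexins and the pannexins beside them. Some genes that the naming rule covers are not reported here. From the other lists, the called genes with the largest change (at most 3 a direction) could be named. *Tjp1*, *Pecam1*, *Cldn5*, *Cdh5*, *Kdr* and the otic markers were named outside that rule, after their values were seen. For likeness, the 3 probes with the highest r were kept. The gene set and the marker lists were chosen with earlier results of these data known. The fit was also run on simulated data, with shifts added only to probes above background on every array. That run does not bear on probes near background or on shifts smaller than those added. Upstream sequences and current symbols are those of RefSeq on GRCm38.p6, and chromosomes are as deposited. The settings tried in turn were neqc (offset 16), median or no normalization, a filter on dim probes, a fit of 2 groups, a replicate block, a trended prior, array weights, the loss of each array, and detection at 0.05. The slide of each array was not used here.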

Additional observations from a re-analysis of the deposited data

How the results depend on the processing

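Of the 12 probes in 3 comparisons, no called difference changed sign under any alternative. The count of connexin probes called between the OV and periotic tissue was 6, and it was 3 with median normalization and 3 with no normalization between arrays. The count between periotic and embryo-minus-otic tissue was 2, and it was 1 with neqc, with median normalization, with no normalization and with only the 2 groups compared. When each array was left out in turn, the counts ranged from 3 to 6 for the OV against periotic tissue (3 without OV replicate 3 and without periotic replicate 2), from 5 to 6 for the OV against embryo-minus-otic tissue, and from 1 to 2 for periotic against embryo-minus-otic tissue (1 without periotic replicate 1, periotic replicate 3, embryo-minus-otic replicate 2 or embryo-minus-otic replicate 3). Over single probes and alternatives, 564 values kept their side of the threshold, 28 lost a call and 5 gained one, the last all for *Gja1* between the OV and embryo-minus-otic tissue. With neqc, which subtracts background, the log2 differences of the OV were -2.11 and -2.64 for *Gja4* against periotic and embryo-minus-otic tissue, -1.01 and -2.38 for ILMN_2691641 of *Gja5*, -1.19 for ILMN_2908133 of *Gja5* against embryo-minus-otic tissue, and 1.12 and 1.17 for ILMN_1227148 of *Gjb2*. With detection at 0.05, the connexin probes detected on every array of a group numbered 4 in the OV, 6 in periotic tissue and 6 in embryo-minus-otic tissue. The shares of all probes were 46.4%, 47.1% and 46.4% in the same order. Over all probes, median normalization gave 1472 higher and 670 lower calls for the OV against embryo-minus-otic tissue and 812 and 315 for periotic against embryo-minus-otic tissue, where quantile normalization gave 1513 and 1417, and 736 and 757. The labels do not say whether same-numbered samples are paired, and the main fit used no pairing. Same-numbered arrays had correlations of 0.00074 to 0.23 in their deviations from the group means, with 5 of 9 over 0.1. In 7 of 9 cases an array correlated best with its own number among the 3 arrays of the other group. With the number as a replicate block, 6, 6 and 2 connexin probes were called in the 3 comparisons, in the order given above, and *Gja1* was called higher in the OV than in embryo-minus-otic tissue (*q* = 0.037 in limma, against 0.062 without the block). Probes close to the negative controls, as those of *Gjb6*, are limited by signal over background.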
